A study of Mus musculus with 2 samples.

Results

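The glycolysis, pyruvate and hypoxia genes comprised 34 of the 31053 genes counted in both libraries, and were picked by symbol. They encode glucose and lactate transporters, the enzymes of glycolysis, and the carriers that bring pyruvate into mitochondria. They also encode subunits of the pyruvate dehydrogenase complex, the kinases that inhibit it, and oxygen-sensing factors that act on the pathway. Wild-type C57BL/6 mice, young adult males per the methods of the study, received PBS (control library) or 200000 B16-F10 melanoma cells (metastatic library) through the tail vein, and lung cells positive for the endothelial protein PECAM1 were sorted after 6 h. Cells of 2 mice were pooled in each library and each group held 1 library, so the data hold no measure of how mice of 1 group vary. B16-F10 is a mouse skin melanoma line, and the injection places tumor cells directly into the circulation, without a primary tumor.

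Endothelial cells are known to make much of their ATP by glycolysis. PFKFB3 makes the sugar phosphate that activates phosphofructokinase, the step at which glycolytic rate is set, and lactate dehydrogenase A turns pyruvate into lactate. HIF-1α and HIF-2α (genes Hif1a and Epas1) are transcription factors that prolyl hydroxylases (Egln genes) and the VHL protein mark for breakdown when oxygen is present, and lung endothelium is known for high Epas1. HIF complexes bind DNA at hypoxia response elements, whose core is ACGTG or GCGTG.

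The promoters of Ldha and Pfkfb3 are shown because both genes recur in the results, and their promoters differ in the number of such cores. Windows of 300 bases (250 before and 50 after a start site) were read from RefSeq on GRCm38.p6, and ACGTG and GCGTG were searched on both strands, with overlapping matches merged into 1 stretch, printed in capitals. The Ldha window is chr7:46845554-46845853 on the plus strand and holds 5 stretches. The Pfkfb3 window is chr2:11502041-11502340 on the minus strand and holds 3 stretches. Each gene had a second start, whose window held 2 stretches for Ldha and 1 for Pfkfb3. The genes themselves lie on chromosome 7 from 46841475 to 46855627 (Ldha, plus strand) and on chromosome 2 from 11471433 to 11554077 (Pfkfb3, minus strand) of GRCm38.
Ldha: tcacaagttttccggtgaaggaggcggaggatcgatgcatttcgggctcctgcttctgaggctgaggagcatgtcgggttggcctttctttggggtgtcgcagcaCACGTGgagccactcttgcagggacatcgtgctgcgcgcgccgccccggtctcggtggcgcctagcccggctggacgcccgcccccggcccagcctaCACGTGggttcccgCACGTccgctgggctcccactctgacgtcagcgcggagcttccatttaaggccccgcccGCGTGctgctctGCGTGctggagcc
Pfkfb3: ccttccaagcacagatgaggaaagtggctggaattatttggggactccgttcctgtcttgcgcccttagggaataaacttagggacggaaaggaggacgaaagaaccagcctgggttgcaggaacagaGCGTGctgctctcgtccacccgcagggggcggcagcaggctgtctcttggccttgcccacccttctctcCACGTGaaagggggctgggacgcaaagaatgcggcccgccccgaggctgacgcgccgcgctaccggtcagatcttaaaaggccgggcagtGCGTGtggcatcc
Of the 34 genes, 32 matched a RefSeq window, and 28 of these (87.5%) held a core in at least 1 window, against 46.7% of all 27025 genes. A gene with more windows has more ways to hold a core. By window, 37 of 48 (77.1%) held a core, against 43.8% of 32851. The difference was not tested. Slc2a3 and Epas1 had no entry. The letters describe the windows and do not show that a factor binds there.

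Barcodes with 1000 to 5000 genes and under 20% mitochondrial UMIs (unique molecular identifiers, 1 per captured RNA molecule) numbered 7134 and 6466. In the control and the metastatic library, 5020 and 4519 were general capillary cells, 1364 and 1086 aerocytes (the capillary cells of gas exchange), 63 and 59 artery cells, and 247 and 304 vein cells, each by at least 2 markers. At least 98.7% of the cells of each class carried 2 or more of 5 endothelial markers. This shows endothelial RNA in the barcodes, but neither the absence of RNA of other cells nor the class. Many cells of the other classes also carried 2 or more general capillary markers. In the control and the metastatic library these were 55.6% and 54.4% of aerocytes, 81.0% and 62.7% of artery cells, and 59.9% and 54.3% of vein cells. The libraries held 67929614 and 64733724 UMIs, and medians in general capillary cells were 5950.5 and 6275 UMIs. The libraries shared 16 of these barcodes. Levels are given as CPM, that is, UMIs per 1000000 UMIs of the class, and intervals, at 95%, cover counting error only. In general capillary cells, erythroid marker RNA was lower in the metastatic library (1959 and 824 CPM over 5 of 5 markers), as was epithelial marker RNA (1616 and 952 over 4 of 4), whereas platelet marker RNA was higher (175 and 271 over 4 of 4). The part of these in the results below was not tested, except where values without platelet-marked barcodes are given.

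To ask how the pathway as a whole stood 6 h after melanoma injection, the metastatic library was compared with the control library within each class. Most members differed little. In general capillary cells the median log2 ratio of the 29 members with at least 100 UMIs was 0.06, beside 0.02 over all 11220 genes with that many, and the members ranged from -0.42 to 0.60. Of these, 3 were higher by a log2 ratio of at least 0.3 and 1 was lower, where 11.7% of all genes were higher and 6.61% lower by that much. The count is close to the background. The interval lay above 0 for 13 members and below 0 for 4, where 24.7% and 16.3% of all genes did so.

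**Figure D1:**
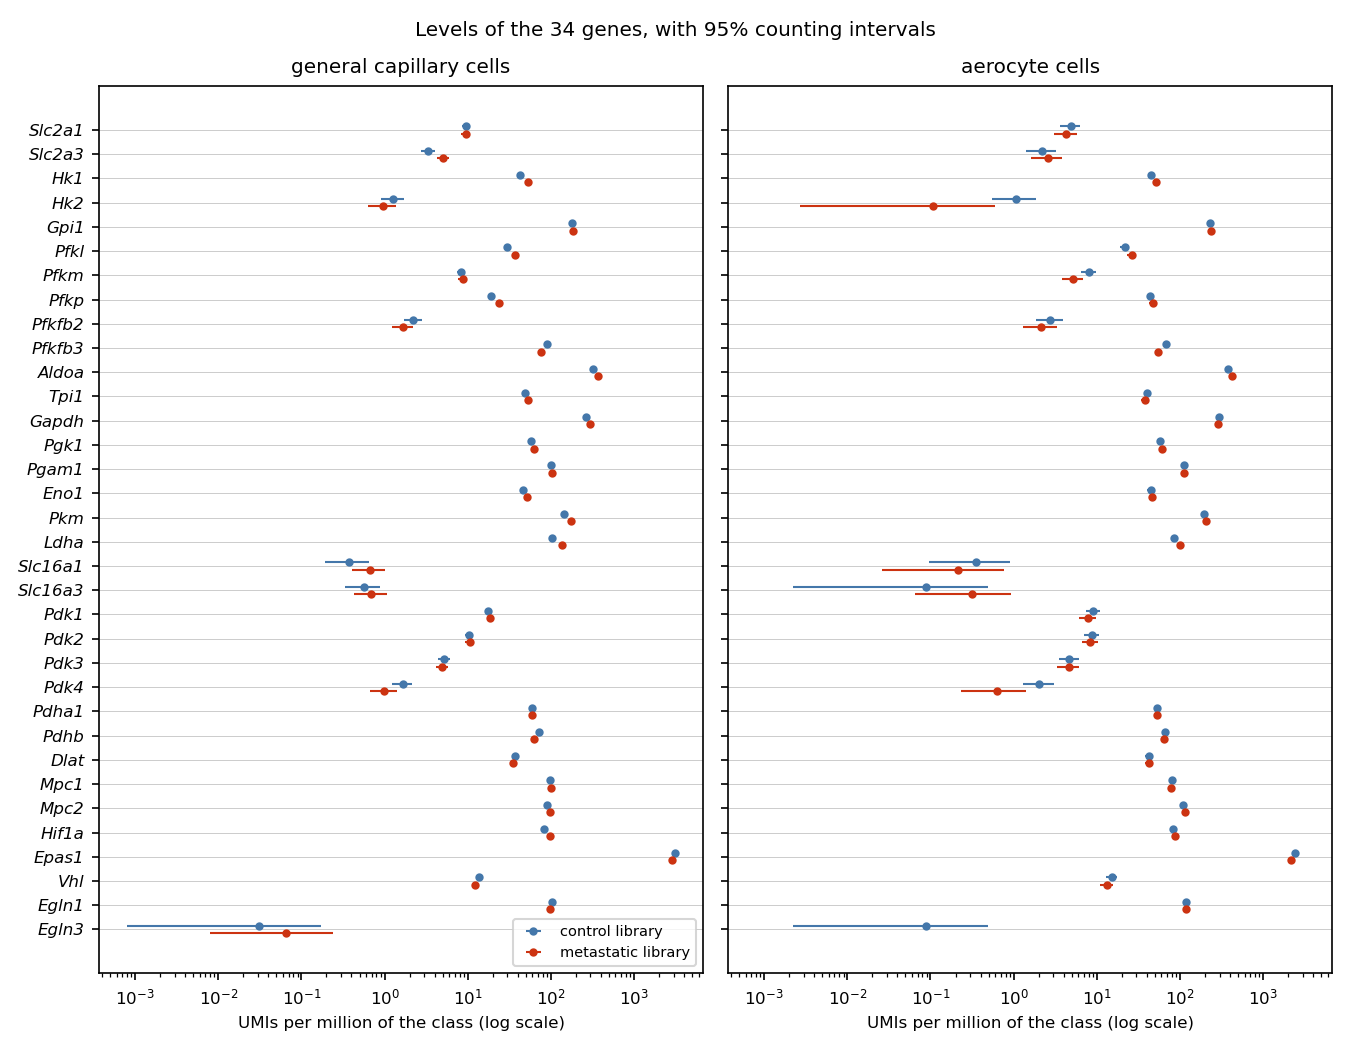
Levels (CPM, log axis) of the 34 genes in general capillary cells and aerocytes of the control and the metastatic library, with 95% counting intervals. Points of both libraries lie close together for nearly all genes, and Epas1 is highest in both classes (3143 and 2886 CPM in general capillary cells).

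Ldha, the lactate-forming enzyme, stood at 104 CPM (interval 101 to 108) in control and 135 (131 to 139) in metastatic general capillary cells, a log2 ratio of 0.37 (0.30 to 0.44). It was also above 0 in aerocytes (0.27, 0.14 to 0.40) and vein cells (0.22, 0.03 to 0.42), and its value in artery cells was 0.12 with an interval that held 0. Hk1, the hexokinase that phosphorylates glucose on entry, stood at 42.7 and 53.2 CPM (0.32, 0.21 to 0.42). The hexokinase Hk2 had 41 and 29 UMIs in all, and was too sparse for a direction.

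Phosphofructokinase genes lay just under the threshold in general capillary cells. Pfkl stood at 30.1 and 36.9 CPM (log2 ratio 0.297) and Pfkp at 19.1 and 23.5 (also 0.297). In vein cells Pfkl was past it at 26.7 and 40.0 CPM (0.58, 0.11 to 1.06). The glycolytic enzymes Aldoa (0.21, 0.18 to 0.25), Gapdh (0.13, 0.09 to 0.17) and Pkm (0.27, 0.21 to 0.32) had intervals above 0 in general capillary cells. The intervals of Pgk1 (57.9 and 63.7 CPM, 0.14), Eno1 (46.6 and 51.6, 0.15) and Tpi1 (49.2 and 53.0, 0.11), enzymes of the middle and lower pathway, also lay above 0. The isomerase Gpi1 (181 and 186 CPM, 0.04) and the mutase Pgam1 (101 and 103, 0.04) had intervals that held 0, as did Pfkm (8.35 and 8.68, 0.06). Reads of Aldoa, Gapdh and Eno1 may be shared with near-identical copies, which makes their levels uncertain. Pfkfb2, a second PFKFB enzyme, was the member lower past the threshold, on 71 and 50 UMIs (-0.42) with an interval that held 0.

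Pfkfb3 ran the other way. It stood at 90.8 CPM in control and 76.3 in metastatic general capillary cells (log2 ratio -0.25, interval -0.33 to -0.17). Aerocytes held 68.0 and 55.2 (-0.30, -0.46 to -0.14), and vein cells 54.8 and 31.4 (-0.81, -1.22 to -0.39). In artery cells it had 32 and 18 UMIs, and the interval held 0.

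In aerocytes 0 members were higher and 2 were lower past the threshold (10.7% and 6% of 9504 genes), with a median of 0.01 over 25 members beside 0.03 over all genes. Those lower were Pfkfb3 and Pfkm, the latter at 8.03 and 5.22 CPM on 91 and 49 UMIs (-0.62, -1.15 to -0.11). Pfkfb3, at -0.301, lay just past the threshold, and the count of lower members was 1 in 9 of 15 alternative settings. Intervals lay above 0 for 5 and below 0 for 3 (16% and 11% of genes). In aerocytes, too, the metastatic library held less epithelial (609 and 87.9 CPM) and erythroid marker RNA (1295 and 847) and more platelet marker RNA (76.5 and 157). In vein cells 4 were higher and 1 was lower (13.4% and 11.8% of 6260 genes), with a median of 0.10 over 21 members beside 0.01. The higher members were Pfkl, Aldoa (0.35), Mpc1, a mitochondrial pyruvate carrier (0.34), and Pfkp (0.32, with an interval of -0.20 to 0.86 that held 0), and the lower was Pfkfb3. Intervals lay above 0 for 4 (Pfkl, Aldoa, Mpc1 and Ldha) and below 0 for 2 (Pfkfb3 and Epas1), as for 10.5% and 10.1% of genes. RNA of other cell types was higher in vein cells of the metastatic library: epithelial markers summed to 121 and 3476 CPM and erythroid markers to 442 and 1347 in the control and the metastatic library, with every marker detected in both. Leukocyte markers summed to 14.1 and 114 (3 of 3 detected in both) and myeloid markers to 36.7 and 624, with C1qa at 0 in the control library. With cells left out that carried 2 or more markers of a cell type other than lung blood endothelium, red cells aside, 205 and 245 vein cells remained, with epithelial markers at 88.2 and 70.2 CPM, myeloid markers at 25.3 and 30.3 and leukocyte markers at 3.37 and 6.16. In these cells Pfkl (0.66), Aldoa (0.31) and Ldha (0.22) had intervals above 0 and Pfkfb3 (-0.95) below 0, whereas the intervals of Mpc1 (0.11), Pfkp (0.10) and Epas1 (-0.06) held 0. Erythroid markers still differed in them, at 479 and 1648 CPM, and their part was not tested. In artery cells 8 members had enough UMIs and none was past the threshold in either direction (18.5% and 14.5% of 1827 genes). The interval lay above 0 for 0 and below 0 for 1, Epas1 (10.3% and 9.8% of genes). Marker RNA of other cell types differed here as well, on 63 and 59 cells. Lymphatic markers summed to 2.03 CPM in the control library, with Mmrn1, Reln and Ccl21a at 0, and to 1480 in the metastatic library, where all 4 were detected. Leukocyte markers summed to 8.11 and 144 (3 of 3 detected in both), myeloid markers to 26.4 and 282 (Cd14 at 0 in control and C1qa in metastatic cells), and mural markers to 716 and 16.4 (Cspg4 at 0 in both). With cells that carried such markers left out, 52 and 48 artery cells remained, lymphatic markers were at 2.52 and 2.61 CPM and mural markers at 20.2 and 13.0, and Epas1 was at a log2 ratio of -0.18 (-0.32 to -0.05).

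**Figure D2:**
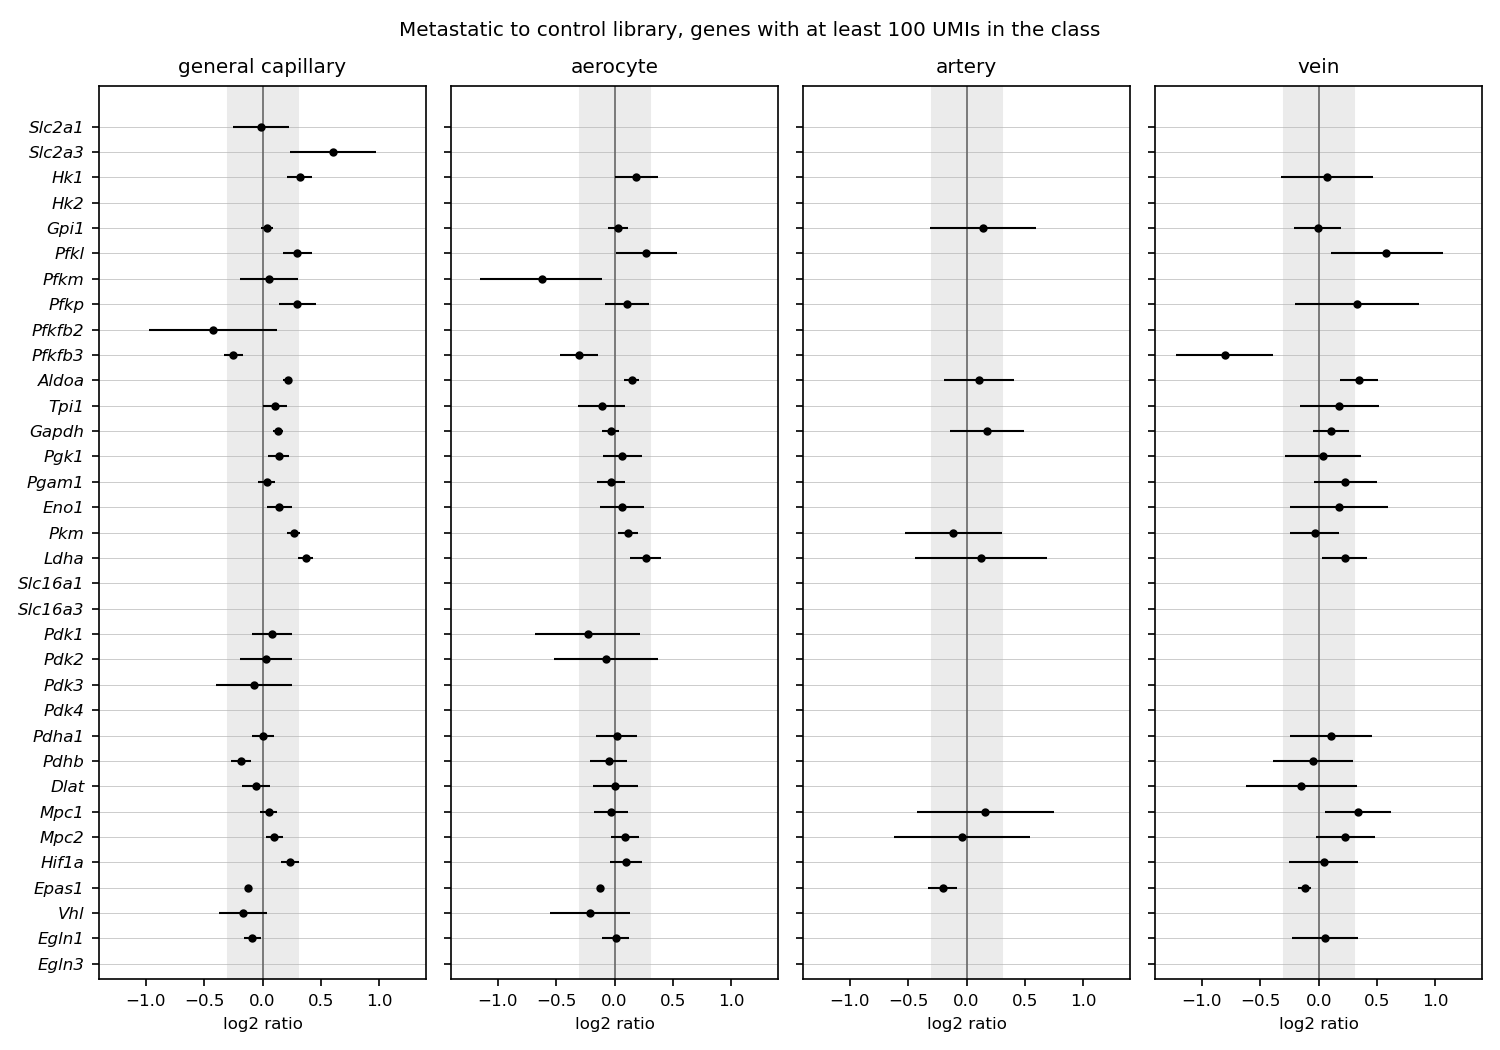
Log2 ratio of the metastatic to the control library for members with at least 100 UMIs in the class, with 95% counting intervals and the range from -0.3 to 0.3 shaded. Ldha lies to the right and Pfkfb3 and Epas1 to the left of 0 in general capillary, aerocyte and vein cells.

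Among the oxygen-sensing genes, Epas1 was abundant and slightly lower in every class. It stood at 3143 and 2886 CPM in general capillary cells (-0.12, -0.14 to -0.11), at 2394 and 2202 in aerocytes (-0.12), at 2278 and 2098 in vein cells (-0.12) and at 2314 and 2007 in artery cells (-0.21). With estimated free RNA subtracted, the value in vein cells changed sign (0.19), and those of the other classes did not in any alternative. Hif1a was higher in general capillary cells (82.7 and 97.5 CPM, 0.24, 0.16 to 0.31). The prolyl hydroxylase Egln1 was lower by less (102.5 and 96.6, -0.09), and higher with free RNA subtracted (0.41). Egln3 was nearly absent, at 1 and 2 UMIs. Vhl was at 13.9 and 12.3 CPM (-0.17, -0.37 to 0.03). Over the alternatives in general capillary cells, Vhl ran from -0.19 to 3.80 and Hif1a from 0.16 to 1.80. Of 4 further oxygen-sensing genes 3 had enough UMIs and none was past the threshold (median -0.11). Of 18 other HIF target genes 17 had enough UMIs in general capillary cells, with a median of 0.02, of which 4 were higher and 4 lower past the threshold. Vegfa, the angiogenic growth factor, stood at 158 and 280 CPM (0.83), whereas Bnip3, a mitophagy receptor, stood at 84.3 and 49.3 (-0.77). The HIF target list did not move as one.

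Genes of the pyruvate carriers, the pyruvate dehydrogenase complex and its kinases showed small differences. The pyruvate dehydrogenase subunit Pdhb was at 71.9 and 63.4 CPM in general capillary cells (-0.18, -0.27 to -0.09), whereas Pdha1 was at 59.4 and 59.5 (0.00). Pdk1, a kinase that inhibits the complex, was at 17.5 and 18.5 (0.08, -0.09 to 0.25). The kinases Pdk2 (0.03) and Pdk3 (-0.07) had intervals that held 0, and Pdk4 had 53 and 30 UMIs, under the minimum. The pyruvate carrier Mpc2 was at 90.6 and 97.2 (0.10, 0.03 to 0.18), whereas Mpc1 (0.05) and the subunit Dlat (-0.05) had intervals that held 0. Of the 5 other genes of the complex and its phosphatases none was past the threshold (median -0.10). Of 16 citric acid cycle genes, all with enough UMIs, 0 were past the threshold in general capillary cells (median 0.01). Of 7 pentose phosphate genes, which branch off glycolysis, 1 was higher, Rpia at 11.4 and 15.9 CPM (0.48), with a median of 0.12. Of 16 further glycolytic isoforms 6 had enough UMIs and 1 was lower, Ldhb, on 59 and 42 UMIs (-0.41). These lists were read beside the same 11.7% and 6.61% of all genes.

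Slc2a3, a glucose transporter known from platelets and leukocytes, had the largest log2 ratio of the members with enough UMIs in general capillary cells, on 107 and 153 UMIs (3.33 and 5.05 CPM, 0.60, 0.23 to 0.97). Barcodes with 2 or more of 4 platelet markers (Pf4, Ppbp, Itga2b, Gp9) were 332 (6.61%) of the control and 481 (10.6%) of the metastatic general capillary cells. They held 65.4% and 85.6% of the Slc2a3 UMIs. In them Slc2a3 stood at 29.7 and 36.8 CPM, against 1.24 and 0.823 in the others. With these barcodes left out, 37 and 22 UMIs were left and the log2 ratio was -0.60. The result for Slc2a3 is thus held by platelet-marked barcodes.

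Hk1 was also higher in platelet-marked barcodes, as were Pkm and Gapdh, and Ldha was not. The log2 ratio of marked to unmarked barcodes was 0.72 (control) and 0.53 (metastatic) for Pkm, and 0.38 and 0.29 for Gapdh. For Pfkfb3 it was -0.23 (control) and 0.37 (metastatic), both with intervals off 0. Between libraries, Pkm ran from 0.25 to 0.32 and Gapdh from 0.11 to 0.15 over the alternatives with a ratio, the removal of marked barcodes among them. Hk1 was at 61.9 and 77.0 CPM in marked and 41.1 and 50.1 in unmarked barcodes, and its log2 ratio between libraries fell from 0.32 to 0.28 when marked barcodes were left out, below the threshold. Ldha was at 108 and 130 in marked and 104 and 136 in unmarked barcodes, log2 ratios of marked to unmarked whose intervals held 0 (0.05, -0.14 to 0.23, and -0.07, -0.21 to 0.07), and its ratio between libraries was 0.38 without the marked barcodes. Among leukocyte-marked barcodes (98 and 104), the lactate exporter Slc16a3 stood at 38.1 and 36.2 CPM, against 0.561 and 0.693 in general capillary cells. The lactate and pyruvate transporter Slc16a1 had 12 and 20 UMIs in general capillary cells and stood at 8.46 and 12.9 CPM in leukocyte-marked barcodes. Hk2 stood at 31.0 and 37.4 there, against 1.28 and 0.957 in general capillary cells. Epas1 was lower there by far, at 91.7 and 86.5 CPM, and Ldha was higher, at 275 and 299 CPM. Platelet-marked barcodes without 2 or more endothelial markers (17 and 19) held Ldha at 188 and 281 CPM, on 13 and 25 UMIs.

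**Figure D3:**
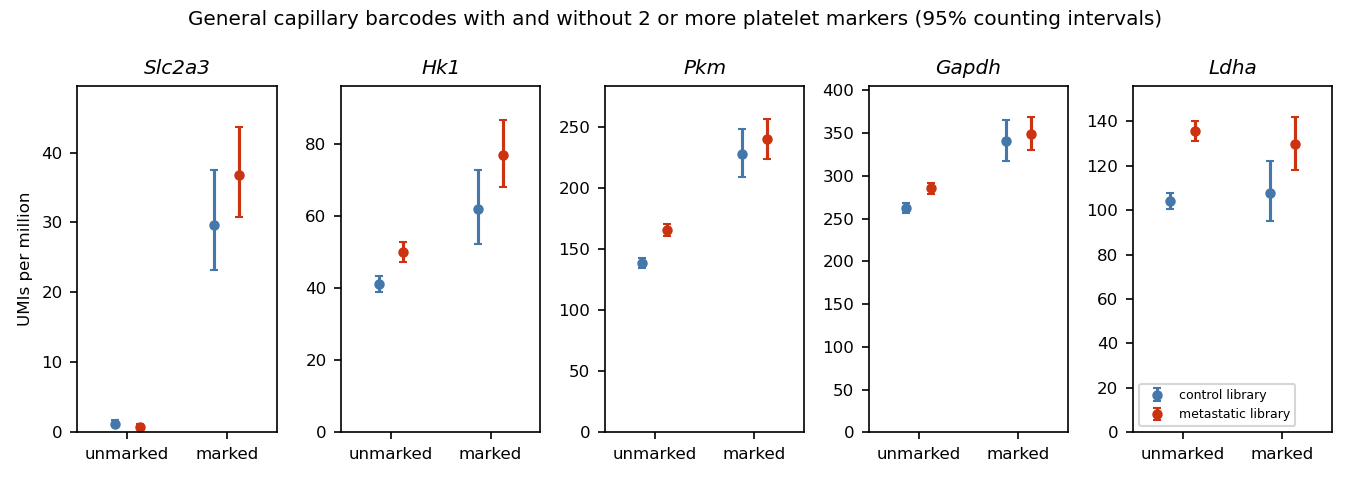
Levels (CPM) of 5 members in general capillary barcodes with and without 2 or more platelet markers, with 95% counting intervals. Slc2a3 is at 1.24 and 0.823 in unmarked barcodes and at 29.7 and 36.8 in marked ones.

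Next, classes were compared within each library. Aerocytes carried another balance of phosphofructokinases than general capillary cells. Pfkp stood at 43.5 against 19.1 CPM in the control library (log2 ratio 1.19, 1.01 to 1.36) and at 46.9 against 23.5 in the metastatic library (1.00, 0.82 to 1.17), while Pfkl was lower (-0.47 and -0.50). The number of Pfkp UMIs per Pfkl UMI was 2.00 and 1.79 in aerocytes and 0.636 in general capillary cells of both libraries. These ratios count UMIs and not protein.

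Of 28 members with at least 100 UMIs over both classes in each library, 8 were higher and 9 lower in aerocytes with intervals off 0 in both libraries, where 23.9% and 22% of 10490 genes were. Slc2a1, the main endothelial glucose transporter, was lower in aerocytes (4.86 against 9.53 CPM in control, -0.97, and 4.26 against 9.44 in metastatic, -1.15). So was Pdk1 (-0.94 and -1.25) and Epas1 (-0.39 in both). Pkm was higher (0.41 and 0.26), as was Gpi1 (0.35 and 0.34).

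Vein cells differed from general capillary cells in 1 member higher and 3 lower in both libraries (9.36% and 14.1% of 10232 genes). Ldha was higher at 173 against 104 CPM (0.73) and 202 against 135 (0.58). Pfkfb3 was lower (-0.73 and -1.28), as were Aldoa and Epas1. In artery cells Tpi1 and Gapdh were higher and Epas1 lower (4.21% and 5.31% of 10102 genes).

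**Figure D4:**
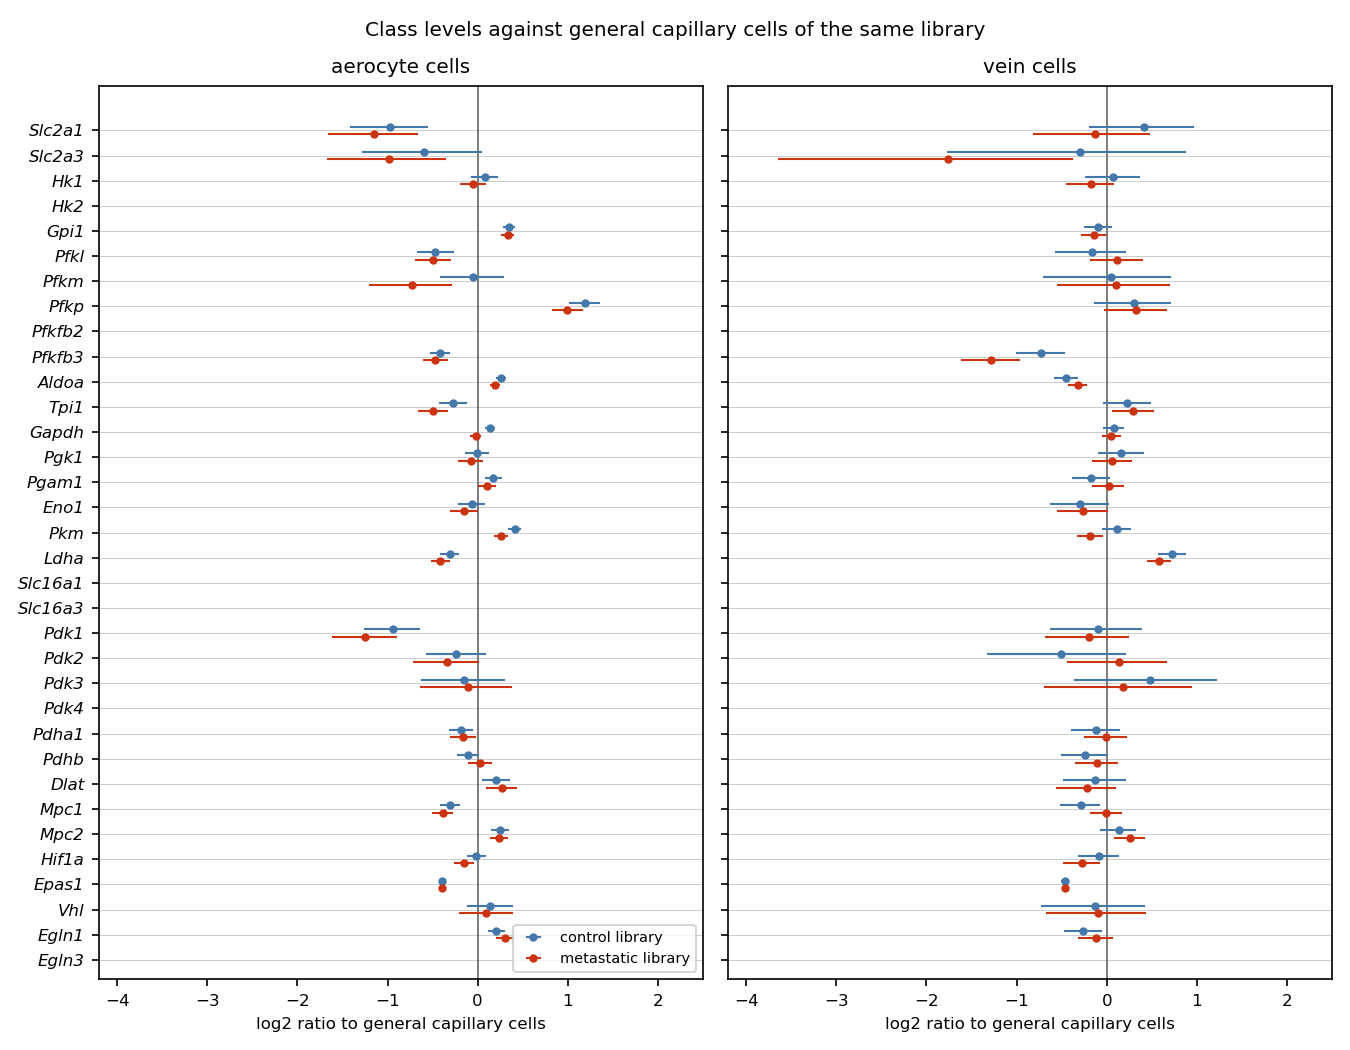
Log2 ratio of aerocyte and vein cells to general capillary cells of the same library, with 95% counting intervals. Pfkp in aerocytes lies near 1 in both libraries, Slc2a1 and Pdk1 near -1, and Ldha is higher in vein cells.

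The study described a reactive state of general capillary cells and named Pfkfb3 with it, from data that include these libraries, so the direction of Pfkfb3 here is no independent evidence. Reactive cells were those with 2 or more of Inhbb, Bcl3, Osmr, Tmem252 and Adamts9 after each cell was thinned at random to 2000 UMIs, a cut that cells near it can cross from draw to draw. They were 303 of 4947 control (6.12%) and 489 of 4461 metastatic cells (10.96%) in the reported draw. Over 6 draws they were 288 to 313 and 454 to 493. The genes that define these cells are markers that the study reported as higher after melanoma injection. It drew these markers from data that include these libraries. The higher share of reactive cells in the metastatic library is thus no independent evidence either. Platelet-marked barcodes were 3.63% of reactive and 6.80% of other control cells, and 10.8% and 10.6% in the metastatic library.

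In the metastatic library Pfkfb3 was at 166 CPM in reactive and 64.2 in other general capillary cells, a log2 ratio of 1.37 (1.23 to 1.50), which ran from 1.19 to 1.40 over the 6 draws. In the control library it was at 111 and 89.5 (0.31, 0.10 to 0.51), from 0.15 to 0.47 over the draws. The control interval lay above 0 in 4 of 6 draws. Between libraries Pfkfb3 was therefore higher in reactive cells (0.58, 0.35 to 0.81) and lower in the others (-0.48, -0.57 to -0.39). Its lower level in general capillary cells as a whole came with the cells outside the reactive state.

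Hif1a was also higher in the reactive cells of the metastatic library, at 156 against 89.6 CPM (0.80, and 0.58 to 0.80 over the draws), so that the reported draw is at the upper end. In the control library it was at 76.1 against 83.2, and over the draws the ratio ran from -0.13 to 0.17. In the metastatic library Ldha (0.42, 0.35 to 0.47 over the draws) and Gapdh (0.15, 0.13 to 0.19) were higher in every draw. Epas1 was lower in both libraries (-0.12 and -0.27). Hk1 was at 73.5 against 50.3 in the reported draw, but its interval was off 0 in 3 of 6 draws. The other members above 0 in the reported draw were Slc2a1 (0.86) and Pkm (0.29), each in 5 of 6 draws, Pfkp (0.35) in 3 and Pdha1 (0.28) in 1. Pkm was also above 0 in reactive cells of the control library (0.29) in 4 of 6 draws. Ldha was above 0 there in 3 of 6 draws and Mpc1 below 0 in 4, neither in the reported draw. Besides Epas1, members below 0 in the metastatic library were Tpi1 in 5 draws, Dlat in 4, and Aldoa and Slc2a3 in 2 each. Pdk1, Gpi1, Pdk3 and Vhl were below 0 in 1 draw each. Of all these, only Pdk1 was below 0 in the reported draw. Of 28 members, 9 had intervals above 0 and 2 below in the metastatic library in the reported draw (14.6% and 16% of 10048 genes), and 5 to 9 and 2 to 5 over the draws. In the control library 2 lay above and 2 below (5.94% and 5.75%), and 1 to 3 and 2 to 5 over the draws.

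**Figure D5:**
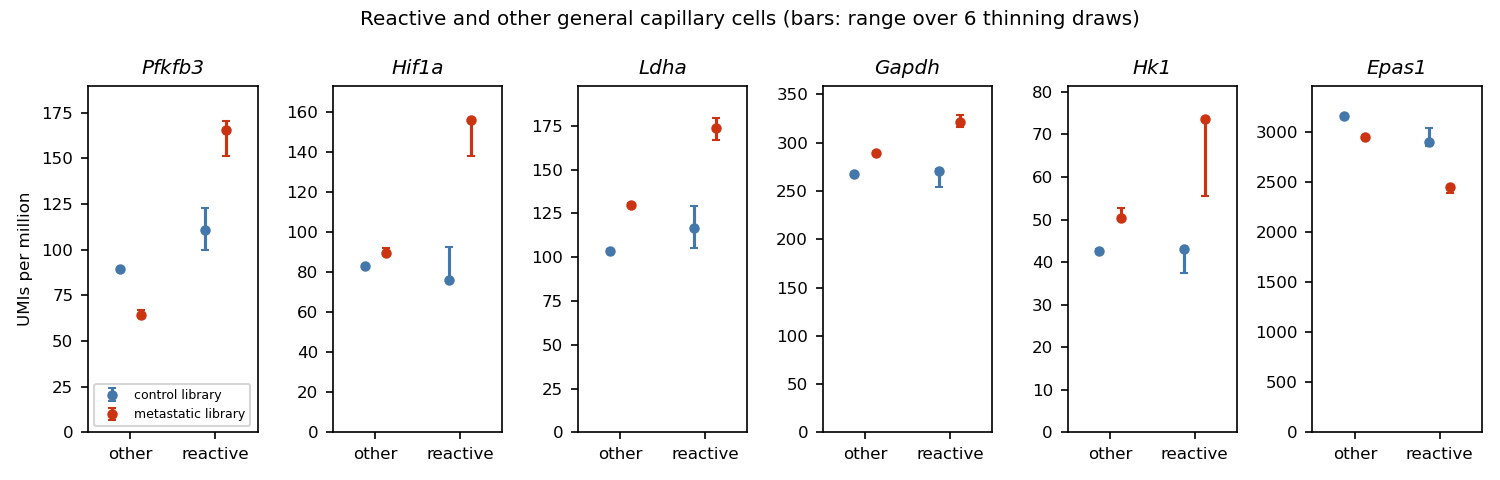
Levels (CPM) of 6 members in reactive and other general capillary cells of both libraries, where points are the reported draw and bars the range over 6 random thinnings. Pfkfb3 of the metastatic library lies below the control library in other cells (64.2 and 89.5) and above it in reactive cells (166 and 111).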

How the data were processed

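Single-cell libraries of PECAM1-sorted lung cells were used, 1 per group. The deposited values are raw UMI counts per gene and barcode: the authors ran Cell Ranger (3.1.0 per the file headers) on mm10, with no normalization. The study's methods name another version, and the annotation release is not given in the sources used here. UMIs were summed by library and class, with Python 3.11.15, numpy 2.4.6 and scipy 1.17.1. Levels carry exact Poisson intervals and log2 ratios exact conditional binomial intervals. With 1 library per group no test was possible, so a log2 ratio of at least 0.3 in size on at least 100 UMIs described a difference. Barcodes meeting several of the aerocyte, vein and artery rules were left out. Aldoa was read from 1 of its 2 identifiers. All members were named. The members and lists were chosen with earlier results of these data known. The random thinning was drawn again once after results had been seen, to give each barcode its own seed, and ranges over 6 draws are given for that reason. Scrublet in scanpy 1.11.5 scored doublets for an alternative. The ratio and its interval were checked on simulated counts. Alternatives covered filters, class rules, doublets, shared barcodes, free RNA, totals and UMI minimums.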

Additional observations from a re-analysis of the deposited data

Results flagged for a closer look

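Pfkfb3 went opposite ways between libraries in general capillary cells: the log2 ratio of the metastatic to the control library was 0.58 in reactive cells and -0.48 in the others, in this direction in each of 6 thinning draws. The difference between these values was not tested, since each group held 1 library.

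Barcodes with 1 to 100 UMIs, which the comparisons do not use, carried several members at higher levels in the metastatic than in the control library, with counting intervals that did not overlap. In CPM, the metastatic and control values were 2619 and 2436 for Gapdh, 1310 and 1199.5 for Aldoa, 1238 and 1123 for Pgk1, 1185 and 1070 for Pkm, 1007 and 890 for Tpi1, 966 and 854 for Ldha, 513 and 462 for Pgam1, 112 and 87.4 for Hk2, and 13.1 and 7.56 for Slc2a3. Epas1 was lower there in the metastatic library, at 1376 and 1494 CPM, also with intervals that did not overlap. Melanoma genes were there too, in both libraries: 1672 and 1499 for Dct, 1261 and 1127 for Tyrp1, 514 and 444 for Pmel, and 420 and 372 for Mlana. The control mice received no melanoma cells, so that this RNA cannot be taken for a level in either lung. The 23192 barcodes with 50 to 1000 UMIs in both libraries held the members at 20973 and 21253 CPM in the metastatic and the control library, against 5130 and 5213 in general capillary cells. The origin of this RNA was not tested.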

How the results depend on the processing

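No paired analysis was possible because each group held 1 library, and no replicate could be left out. Over 15 alternatives the median log2 ratio of the members ran from 0.04 to 0.10 in general capillary cells. It changed sign in at least 1 alternative in the other classes: from -0.02 to 0.17 in aerocytes, from -0.05 to 0.36 in artery cells and from -0.36 to 0.11 in vein cells. The -0.36 came under free RNA subtraction, which left fewer members with a ratio. In general capillary cells Ldha kept its direction in all 12 alternatives that gave it a ratio (0.35 to 0.40), and Pfkfb3 in all 13 (-0.54 to -0.24). Free RNA subtraction gave no ratio for Ldha, since it took off every Ldha UMI in 1 library or both. The direction of Ldha under that setting is thus unknown. Slc2a3 in general capillary cells reversed to -0.83 where RNA of other cell types was left out and to -0.60 without platelet-marked barcodes, and under free RNA subtraction Mpc1 in vein cells reversed to -0.27, Epas1 in vein cells to 0.19 and Egln1 in general capillary cells to 0.41. Wide ranges over the alternatives were also seen in other members. Vhl ran from -0.19 to 3.80 and Hif1a from 0.16 to 1.80 in general capillary cells, and Vhl from -0.24 to 0.76 in aerocytes. In vein cells Hif1a ran from -2.07 to 0.20 and Pdha1 from -0.52 to 0.18. The free RNA subtraction set the share of free RNA from globin genes, with a cap of 50% added during the analysis and reached in control general capillary cells (89.7% without it) and aerocytes (59.3%). It may not measure free RNA, and the causes of its differences were not tested.

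Counts past the threshold are small and moved with most settings. The share of all genes past the threshold was not computed under these settings. The counts below therefore describe the settings and are not read as results about the members. Free RNA subtraction took off every UMI of some members in each class, and these dropped out, so its counts rest on fewer members. Higher and lower were 5 and 3 in general capillary cells, 3 and 1 in artery cells and 0 and 4 in vein cells under this subtraction, and 5 were higher in aerocytes. With a minimum of 30 UMIs they were 5 and 3 in general capillary cells and 3 and 4 in artery cells, and 3 were lower in vein cells. With 300 UMIs, 0 were lower in general capillary cells and 0 in vein cells, 2 were higher in vein cells, and 1 was lower in aerocytes. Subtracting free RNA of unshared barcodes gave 6 higher in general capillary cells and 2 in vein cells. With barcodes of several classes kept, 1 was higher in artery cells, 2 were higher in vein cells and 1 was lower in aerocytes. Where RNA of other cell types was left out, 2 were higher in vein cells. Without platelet-marked barcodes, 2 were lower in general capillary cells and 1 in aerocytes. In aerocytes 1 was lower also with a minimum of 300 or 1500 genes, a mitochondrial limit of 10%, doublets or shared barcodes left out, or totals without mitochondrial, ribosomal and globin genes.

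All alternatives for reactive cells, the subtraction of unshared free RNA and the removal of platelet-marked barcodes were chosen after seeing the data. With 3 or more of the 5 genes, the ratio of reactive to other cells was 0.87 (control) and 1.67 (metastatic) for Pfkfb3, 1.23 (metastatic) for Hif1a, and -0.24 and -0.39 for Epas1. Thinned to 1000 UMIs, it was 0.60 (control) for Pfkfb3, 0.23 (control) for Hif1a and -0.34 (metastatic) for Epas1. Other draws gave 1.20 and 1.19 for Pfkfb3 and 0.65 and 0.58 for Hif1a in the metastatic library, 0.17 for Hif1a and -0.062 and -0.050 for Epas1 in the control library, and -0.30 for Epas1 in the metastatic library. The direction of Hif1a in control cells thus depends on the draw, that of Pfkfb3 did not in any alternative run.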
